A study of Homo sapiens with 6 samples.

Results

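The carbonic anhydrases are the enzymes that interconvert carbon dioxide and bicarbonate, and 10 of their genes (CA2, CA5B, CA6, CA8, CA9, CA10, CA11, CA12, CA13 and CA14) were followed in DMS53 cells, out of 62696 genes counted. These 10 genes were chosen by family membership with the counts of the control and OC2-OE libraries already known, so their differences between the groups, and the calls of the fit over all genes where they are given, describe these libraries and are no independent evidence. DMS53 is a long-established line of small cell lung cancer (SCLC) whose cells have neuroendocrine (NE) features. All cells had been transduced with lentivirus and selected with puromycin. The 3 control libraries came from cells with the empty vector, whose backbone encodes mGFP, and the 3 OC2-OE libraries from cells with constitutive expression of mGFP-tagged ONECUT2 (OC2), from RNA-Seq experiments that the study describes as independent. The question behind the comparison is what enforced OC2 does to the state of these cells.

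Carbonic anhydrases hydrate carbon dioxide at a zinc ion held by histidines, and so supply bicarbonate and protons wherever cells move acid. The family is divided by where the enzyme sits. CA2 and CA13 are cytosolic, CA5B is mitochondrial, CA6 is secreted and is best known from saliva, and CA9, CA12 and CA14 span the plasma membrane with the catalytic domain outside the cell. CA9 is a widely used marker of hypoxia, since its promoter carries a site for the hypoxia-inducible factors (HIF). CA8, CA10 and CA11 have lost the enzymatic activity: CA8 binds the inositol trisphosphate receptor ITPR1, and CA10 and CA11 bind neurexins at synapses. In solid tumors, CA9 and CA12 are known for acidifying the space around the cells.

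In OC2-OE cells, CA6 appeared from 0 counts to become the second most abundant of the 10 genes per length, while CA9 fell about 12.1-fold. The sequences upstream of these 2 genes are shown because they are the ends of the range. Each is the 250 bases before the RefSeq start of the gene on GRCh38.p14, plus strand, with CA6 at chr1:8945618-8945867 and CA9 at chr9:35673678-35673927. Capitals mark the letters of 2 motifs sought on both strands, the core of the hypoxia response element (ACGTG or GCGTG) and a core of the ONECUT site (ATTGAT or ATTGAC).
CA6: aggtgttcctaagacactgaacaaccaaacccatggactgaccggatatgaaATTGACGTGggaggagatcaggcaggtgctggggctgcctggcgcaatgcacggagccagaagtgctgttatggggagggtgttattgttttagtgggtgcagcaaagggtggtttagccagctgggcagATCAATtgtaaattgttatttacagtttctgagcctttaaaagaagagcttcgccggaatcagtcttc
CA9: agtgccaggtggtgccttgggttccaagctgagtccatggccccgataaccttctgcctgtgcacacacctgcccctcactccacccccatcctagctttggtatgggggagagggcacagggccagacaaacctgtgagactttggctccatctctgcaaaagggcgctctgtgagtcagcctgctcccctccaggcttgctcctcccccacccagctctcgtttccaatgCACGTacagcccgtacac

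The CA9 window held 1 hypoxia core, on the minus strand, from 18 to 14 bases before the start, and no ONECUT core. The CA6 window held 2 ONECUT cores, ATTGAC from 198 to 193 bases before the start and ATTGAT on the minus strand from 68 to 63 bases before it. It also held 1 hypoxia core, from 194 to 190 bases before the start, which shares letters with the first ONECUT core. Among all 35116 upstream windows of this length in the RefSeq table, 43.2% held a hypoxia core and 10.3% an ONECUT core. No window was read for CA2, CA8, CA11 or CA13. Windows of the other 6 of the 10 genes were read, 8 windows in all, since CA10 has several starts. Of the other windows, CA12 had 1 hypoxia core, CA5B had 6, CA14 had none, and 1 of the windows of CA10 had 1 ONECUT core. A match of letters does not show that a factor binds there.

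The libraries held between 16533284 and 19099337 read pairs assigned to genes. ONECUT2, which checks the labels, had 465, 412 and 394 counts across control replicates against 74031, 68853 and 72763 across OC2-OE replicates, where transgene and endogenous reads fall in 1 count. Of the NE markers SYP, NCAM1, INSM1, CHGA and SYT1, 5 of 5 were detected. Their summed level was 1076 to 1091 CPM (counts scaled by library size) in control libraries and 730 to 748 CPM in OC2-OE libraries. By the rule given below, which called 56.5% of all tested genes, 2 were higher (CHGA and SYT1) and 3 lower (SYP, NCAM1 and INSM1). Epithelial markers (EPCAM, KRT8 and KRT18) summed to 3511 to 3611 CPM and 2746 to 2806 CPM. The 5 erythroid markers, which matter here because CA1 and CA2 are abundant in red cells, summed to at most 0.428 CPM in control libraries and 0.329 CPM in OC2-OE libraries, and HBB and HBG1 were at 0 in all 6. Immune markers (PTPRC, CD3E and LYZ) summed to 0.299 to 0.535 CPM and 1.90 to 2.69 CPM. LYZ carried this rise, with 21 counts in the control group and 122 in the OC2-OE group. Fibroblast markers (COL1A1, COL3A1 and DCN) summed to 20.1 to 23.3 CPM and 26.4 to 29.6 CPM. Endothelial markers (PECAM1, VWF and CDH5) summed to 2.99 to 3.96 CPM and 2.36 to 3.35 CPM. Within this sum CDH5 went from 52 to 3 counts and VWF from 1 to 17. The part of these markers in the results below was not tested.

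Genes were compared by edgeR's quasi-likelihood test over 17307 genes with enough counts, called at an adjusted p under 0.001. By that rule 56.5% of all tested genes were called, 27.8% higher and 28.7% lower in OC2-OE cells, and in 73.2% the groups did not overlap. Of the 10 carbonic anhydrases, 7 had enough counts for the fit, CA6 through its OC2-OE libraries alone. Among the 7, CA6, CA11 and CA13 were called higher, CA8, CA9 and CA10 lower, and CA5B was not called. In all 6 called genes the libraries of the groups did not overlap. Since the genes were chosen with this contrast known, nothing is read from these counts. CA2, CA12 and CA14 had too few counts.

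CA6, the secreted enzyme (ENSG00000131686.15, chromosome 1 from 8945867 to 8975092 on GRCh38), had 0 counts in all 3 control libraries. It had 372, 365 and 362 counts in OC2-OE replicates 1, 2 and 3, or 20.1 ± 0.853 CPM (SD, n = 3). The OC2-OE libraries lay close together and far from the control libraries. Against a floor of 3 counts over the control group, or 0.0581 CPM, CA6 was 346-fold higher in OC2-OE cells. This is an approximate lower bound. It covers the counting error of the control libraries only and leaves out that of the OC2-OE libraries. Of the 31274 genes without a count in any control library, CA6 had the most OC2-OE counts, 1099 in sum, followed by a gene with 874. In a bulk culture, a change in the share of cells that express a gene and a change in RNA per cell cannot be told apart. A gene annotated on the opposite strand over 115 bases of CA6 exons, ENSG00000290109, had 0 counts throughout. Of the 2 tested genes within 100 kb, ENO1 was lower and RERE higher, by -0.35 and 0.19 on the log2 scale.

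**Figure D1:**
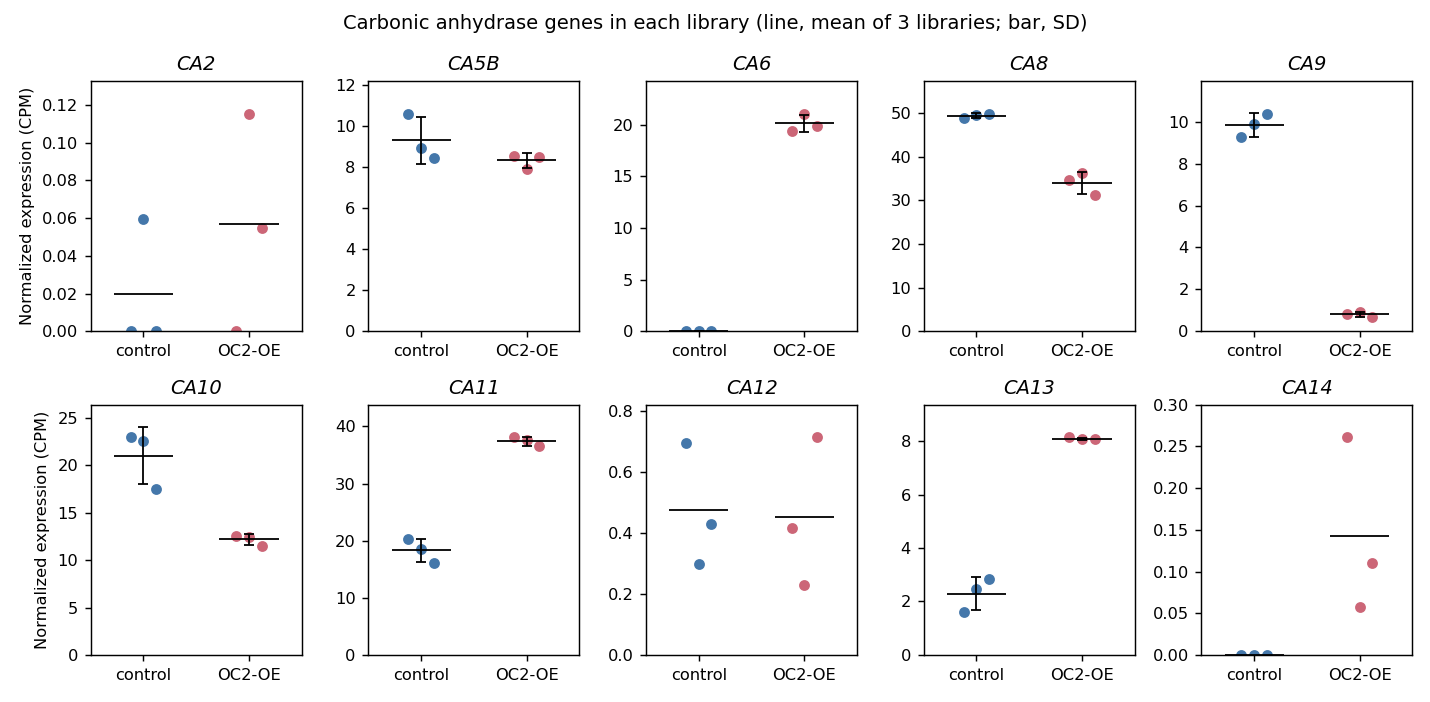
Normalized expression in CPM (linear axes from 0, each gene on its own scale) of the 10 carbonic anhydrase genes in the 3 control and 3 OC2-OE libraries. Points are libraries, lines means and bars SDs (for the 7 genes with enough counts), and CA6 sits at 0 in the control libraries and near 20.1 CPM in OC2-OE libraries, and CA9 drops from 9.86 to 0.806 CPM.

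CA9, the hypoxia-inducible membrane enzyme (ENSG00000107159.14, chromosome 9 from 35673928 to 35681159), had 173, 166 and 169 counts across control replicates against 16, 16 and 12 across OC2-OE replicates. All control libraries were high and all OC2-OE libraries low. Its level went from 9.86 ± 0.569 to 0.806 ± 0.135 CPM (SD, n = 3), a change of -3.60 on the log2 scale (standard error 0.18). Only 0.32% of all tested genes had a lower value. ARHGEF39, a gene of the opposite strand, shares 571 bases with the exons of CA9, 35.7% of their length. ARHGEF39 had counts of 488, 363 and 372 across control replicates against 138, 106 and 118 across OC2-OE replicates (log2 fold change -1.84, standard error 0.092, adjusted p = 5.34e-38, edgeR quasi-likelihood test). The counting used the strand, and the part that reads of the wrong strand could have in the CA9 value was not tested. Of 11 tested genes within 100 kb of CA9, ARHGEF39 among them, 4 were lower and 1 higher (all tested genes, 28.7% and 27.8%).

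The other membrane enzymes were near the detection limit. CA12 (chromosome 15 from 63321378 to 63381846), which is regulated by estrogen in breast tissue, had 13, 5 and 7 counts across control replicates against 8, 4 and 13 across OC2-OE replicates. The groups overlapped fully, and the ratio of OC2-OE to control was 0.945 with a 95% counting interval of 0.521 to 1.71. CA14 (chromosome 1 from 150257251 to 150265078) had 0 counts in the control libraries against 5, 1 and 2 across OC2-OE replicates. Its ratio to the floor of 3 counts over the control group was 2.52. This ratio leaves out the counting error of the OC2-OE libraries, so it is no bound on the difference. Its whole OC2-OE signal was 8 counts, 5 of them in 1 library. CA4, the remaining membrane-bound enzyme, which is held by a lipid anchor and was not among the 10, had 8 counts in each group.

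Among the cytosolic enzymes, CA13 (ENSG00000185015.8, chromosome 8 from 85220587 to 85284073) had 30, 41 and 46 counts across control replicates against 156, 140 and 147 across OC2-OE replicates. The control libraries were more spread than the OC2-OE libraries, without overlap. Its level was 2.29 ± 0.626 CPM and 8.10 ± 0.0389 CPM (SD, n = 3), a change of 1.83 on the log2 scale (standard error 0.16). Without each library in turn this value ran from 1.61 to 2.01. CA2, the fast and widely expressed cytosolic enzyme, lies further along the same strand, from 85463968 to 85481493. It had 0, 1 and 0 counts across control replicates against 0, 2 and 1 across OC2-OE replicates, so that any difference was not detectable at this depth. CA1 and CA3, which lie between CA13 and CA2, had 0 and 5 counts in the control group and 1 and 2 in the OC2-OE group. For CA3 the ratio was 0.378 (95% counting interval 0.0360 to 2.31). CA7 on chromosome 16 went from 6 to 2 counts (ratio 0.315, interval 0.0311 to 1.76). Of the 5 cytosolic genes, CA13 alone had more than 6 counts in either group.

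Of the mitochondrial pair, CA5B (ENSG00000169239.13, X chromosome from 15688830 to 15788411) had 198, 149 and 137 counts across control replicates against 164, 137 and 155 across OC2-OE replicates. The groups overlapped, at 9.31 ± 1.14 and 8.32 ± 0.362 CPM (SD, n = 3), a change of -0.17 on the log2 scale (standard error 0.11). CA5BP1, a pseudogene copy next to CA5B on the same strand, shares 29 bases with its exons and had 397 counts in the control group and 459 in the OC2-OE group, a log2 difference of 0.13 (standard error 0.11, adjusted p = 0.310, edgeR quasi-likelihood test). Reads that fit both copies cannot be placed, which makes the CA5B value uncertain. CA5A, the other mitochondrial enzyme and known from liver, was not among the 10 (chromosome 16 from 87881546 to 87936580). It had 210, 164 and 123 counts across control replicates against 38, 42 and 46 across OC2-OE replicates. It fell from 9.53 ± 1.85 to 2.31 ± 0.288 CPM (SD, n = 3), a change of -2.05 on the log2 scale (standard error 0.15, adjusted p = 1.34e-24 by edgeR's quasi-likelihood test), and was lower in 3 of 3 OC2-OE libraries. The proteins of the pair were 64.2% identical over 279 aligned residues. Whether CA5A and CA5B differed in their response was not tested.

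The acatalytic members did not move together. CA11 (ENSG00000063180.9, chromosome 19 from 48637946 to 48646187) had 378, 310 and 262 counts across control replicates against 730, 651 and 665 across OC2-OE replicates, and every OC2-OE library was above every control library. Its level went from 18.3 ± 2.07 to 37.4 ± 0.813 CPM (SD, n = 3), a change of 1.03 on the log2 scale (standard error 0.066). CA10, its closest relative in protein sequence (58.5% identity over 289 residues), lies on chromosome 17 from 51630313 to 52160017. It had 429, 378 and 285 counts across control replicates against 241, 216 and 210 across OC2-OE replicates. CA10 was lower in all OC2-OE libraries, at 21.0 ± 3.04 and 12.2 ± 0.577 CPM (SD, n = 3), a change of -0.79 on the log2 scale (standard error 0.085). CA8 (ENSG00000178538.10, chromosome 8 from 60185412 to 60281400) had 913, 828 and 810 counts across control replicates against 663, 626 and 569 across OC2-OE replicates. The control libraries of CA8 were nearly equal after normalization, at 49.4 ± 0.479 CPM against 34.0 ± 2.51 CPM (SD, n = 3), a change of -0.54 on the log2 scale (standard error 0.053). Within 100 kb of CA11, 6 of 8 tested genes were lower and 1 higher (all tested genes, 28.7% and 27.8%). Around CA5B, CA12, CA13 and CA14, in that order, 1 of 4, 2 of 2, 1 of 3 and 2 of 8 were higher. Of these, CA14 alone had lower neighbors, 2 of them. Whether neighbors moved with a member was not tested. No tested gene lay within 100 kb of CA8 or CA10.

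**Figure D2:**
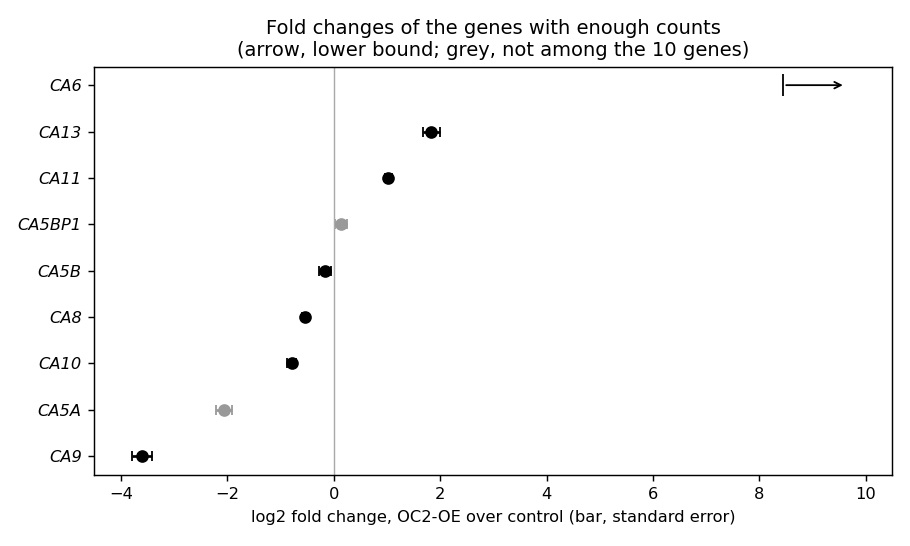
Log2 fold change of OC2-OE over control for the 7 carbonic anhydrase genes with enough counts (black) and for CA5A and CA5BP1 (grey), with standard errors from edgeR and, for CA6, an arrow from its approximate lower bound of 8.44. CA13 and CA11 lie above 0, CA5B and CA5BP1 close to it, and CA8, CA10 and CA9 below it.

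The division into active and inactive members was also read from the protein sequences, which the choice of genes did not use. Proteins were translated from the principal coding transcripts of GENCODE release 29 and aligned to CA2, and the 3 positions of the zinc-binding histidines of CA2 were examined. All 12 genes of the active classes had histidine at 3 of 3 positions. CA8 had it at 2, CA10 at 1 and CA11 at 0 of the 3. Identity to CA2 was 60.8% for CA13, 55.1% for CA5B and 44.0% for CA8. It was 38.2%, 37.8%, 37.7% and 36.6% for CA14, CA12, CA6 and CA9, and 36.9% and 34.3% for CA11 and CA10. The genes that rose (CA6, CA11, CA13) thus came from 3 separate classes of the family, as did those that fell (CA8 and CA10 from the acatalytic class, CA9 from the membrane class, and CA5A from the mitochondrial class).

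To compare levels between genes, CPM was divided by exon length in kb (FPKM). In control cells the order was CA11 (9.40 ± 1.06), CA8 (6.41 ± 0.0622), CA9 (6.17 ± 0.356), CA10 (4.74 ± 0.684), CA5B (1.09 ± 0.134), CA13 (0.410 ± 0.112), CA12 (0.0679 ± 0.0289) and CA2 (0.00993 ± 0.0172), all as FPKM with SD over 3 libraries, and CA6 and CA14 had no counts. CA8 and CA9 overlapped between libraries, and no other neighbors in this order did, from CA11 down to CA2. In OC2-OE cells the order was CA11 (19.2 ± 0.418), CA6 (7.56 ± 0.321), CA8 (4.41 ± 0.325), CA10 (2.75 ± 0.130), CA13 (1.45 ± 0.00696), CA5B (0.977 ± 0.0425), CA9 (0.504 ± 0.0843), CA12 (0.0649 ± 0.0348), CA14 (0.0433 ± 0.0320) and CA2 (0.0283 ± 0.0288). Here neighbors from CA11 down to CA12 did not overlap, while CA12 and CA14, and CA14 and CA2, did. CA9 thus stood at the level of CA8 in control cells and under CA5B in OC2-OE cells. These lengths sum every annotated exon, so a gene with long exons that these cells do not use has too low a value.

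Summed over all 15 carbonic anhydrase genes, the level was 33.1 ± 2.23 FPKM in control cells and 38.2 ± 0.918 FPKM in OC2-OE cells (SD, n = 3). The makeup shifted more than the sum. The membrane class held 19.2% ± 2.50 of the sum in control cells, from 16.9% to 21.9%, and 1.76% ± 0.153 in OC2-OE cells. The mitochondrial class went from 17.2% ± 1.97 to 5.49% ± 0.432, and within it CA5A went from 4.61 to 1.12 FPKM on average. The secreted class, CA6 alone, went from 0% to 19.8% ± 0.672, and the cytosolic class from between 1.21% and 1.85% to between 3.85% and 4.14%. The acatalytic class held the largest share in both, 62.1% ± 0.868 and 69.0% ± 0.988. In none of the 5 classes did the shares of the groups overlap, as the groups also did not in 73.2% of all tested genes. The shares add to 100%, so a fall in any class raises the others. For the secreted class the separation follows from CA6 having 0 counts in every control library.

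**Figure D3:**
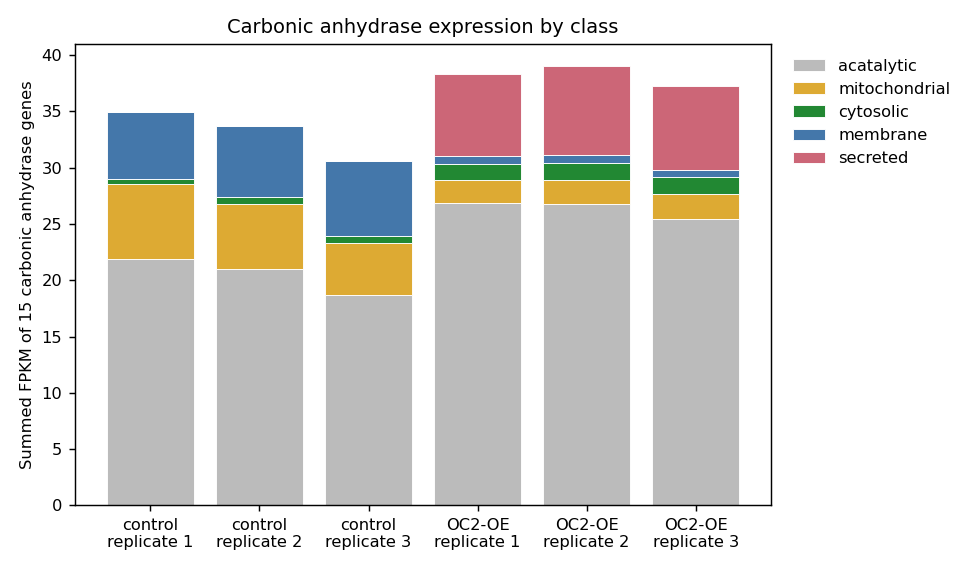
Summed FPKM (linear axis from 0) of 15 carbonic anhydrase genes in each library, divided by class. The blue membrane segment, 19.2% of the control sum, shrinks to 1.76% in OC2-OE libraries, where the red secreted segment, CA6, holds 19.8%.

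Genes that work with the carbonic anhydrases were described from lists written from general knowledge, read against the 27.8% higher and 28.7% lower of all tested genes. The lists were chosen with earlier results of these data known, so their counts describe these libraries and are no independent evidence. Of 14 HIF target genes, which share the hypoxia response with CA9, 14 were tested, with 8 lower and 2 higher and a median log2 fold change of -0.27 (all tested genes, 0.01). NDRG1, a stress-induced gene, fell from 277 to 69.0 CPM on average (log2 fold change -2.01, standard error 0.032, adjusted p = 6.64e-89, edgeR quasi-likelihood test), and ANKRD37 fell by 1.03 on the log2 scale. VEGFA, the angiogenic growth factor, rose by 1.00, against the direction of CA9. Of 8 HIF factors and regulators, 4 were lower and 1 higher, with a median of -0.14. EPAS1 and HIF1A, which encode the HIF alpha subunits, fell by 0.95 and 0.54 on the log2 scale, and EGLN2, a prolyl hydroxylase that marks them for degradation, had a log2 fold change of 0.62. The labels name no hypoxia treatment, and HIF protein was not analysed here.

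Proton and lactate transporters, which carry the acid that membrane carbonic anhydrases buffer, were higher for 9 and lower for 2 of 14 tested genes, with a median of 0.41. SLC9A3, a sodium-proton exchanger, rose by 1.39 and SLC16A1, the lactate transporter MCT1, by 1.13 on the log2 scale, the latter from 64.7 to 142 CPM on average. SLC9A9, an exchanger of endosomes, fell by 1.09 (adjusted p = 1.16e-05, edgeR), and without OC2-OE replicate 1 the lower calls of this list dropped to 1, with an adjusted p of 0.00153 for SLC9A9. Of 17 bicarbonate and anion transporters, 11 were tested, 4 higher and 4 lower, with a median of 0.20. SLC4A3, an anion exchanger, rose by 1.47 on the log2 scale, while SLC4A10, a sodium-coupled bicarbonate transporter of neurons, and SLC4A11 fell by 1.13 and 0.64. Of 9 water and gas channels, 6 were tested, 2 higher and 1 lower, with a median of 0.74. This median included RHCG and RHBG, which passed the filter on low counts through their OC2-OE libraries, and RHBG was not called. The other tested genes of this list ran from -1.02 to 0.93 on the log2 scale. AQP3, which passes water and glycerol, fell by 1.02. RHCG, an ammonia channel of the Rh family named after its values were seen, was called higher, with 2, 4 and 0 counts across control replicates against 45, 35 and 39 across OC2-OE replicates, and had passed the filter on low counts through its OC2-OE libraries alone. RHCE, the other higher gene, had a log2 fold change of 0.93, a call lost without control replicate 2 or 3 or OC2-OE replicate 2 or 3, where the higher count was 1 and the adjusted p reached 0.00892 (edgeR).

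Of 10 enzymes that use bicarbonate or sense it, 9 were tested, 4 higher and 1 lower, with a median of 0.13. CPS1, which starts the urea cycle in mitochondria and draws on CA5 bicarbonate in liver, rose from 0.947 to 6.08 CPM on average (log2 fold change 2.67, standard error 0.20, adjusted p = 5.34e-24, edgeR). ACACB, an acetyl-CoA carboxylase, rose by 1.54 and CAD, which starts pyrimidine synthesis, by 0.31. The lower gene, ACACA, named after its value was seen, had a log2 fold change of -0.14 and was not called without control replicate 1 or without any 1 of the OC2-OE libraries, where the count was 0. Of the partners of the acatalytic members, 5 of 6 were tested, 2 higher and 3 lower, with a median of -0.53. ITPR1, which CA8 binds, rose by 0.86 while CA8 fell, and ITPR2, a receptor of the same family, fell by 1.55. Of 7 acid-sensing receptors and channels, 3 were tested, 2 higher and 1 lower, with a median of 0.83. ASIC1 and ASIC3, acid-sensing sodium channels, rose by 1.62 and 0.83. PTPRG and PTPRZ1, receptor phosphatases with a carbonic anhydrase-like domain, gave 0 calls by edgeR, although both had an unadjusted p under 0.05. Their log2 fold changes were 0.78 (adjusted p = 0.00116) and -0.75 (adjusted p = 0.0196), and limma voom called 1 of them and DESeq2 0. Without control replicate 3, edgeR called 1.

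**Figure D4:**
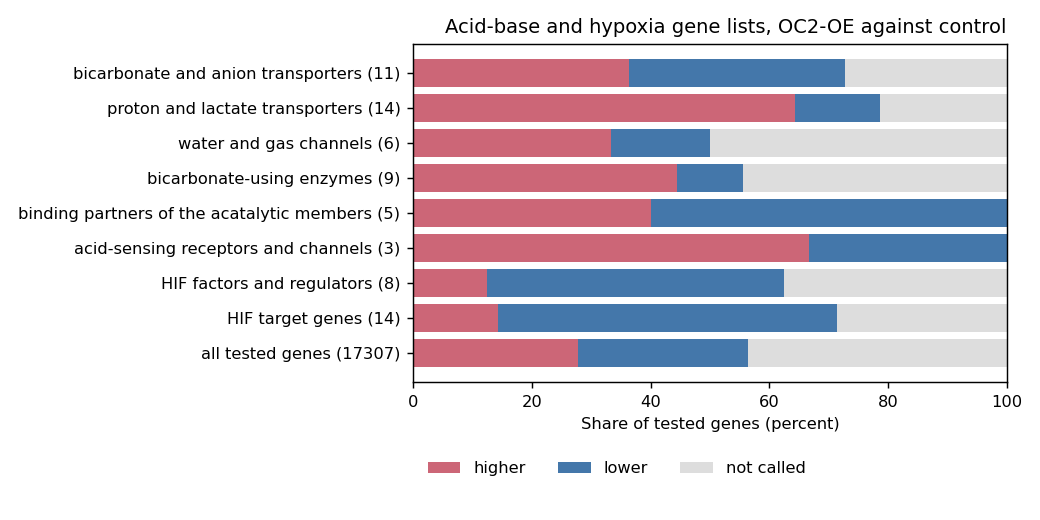
Share of the tested genes of each list (number in brackets) that was higher, lower or not called in OC2-OE against control at an adjusted p under 0.001, beside all 17307 tested genes. HIF target genes have 8 of 14 genes lower, and proton and lactate transporters 9 of 14 higher, where all tested genes have 28.7% lower and 27.8% higher. The lists were chosen with earlier results of these data known.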

How the data were processed

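Poly(A) RNA of 6 DMS53 cultures was sequenced with a stranded kit. The authors deposited raw counts of read pairs per gene, made with featureCounts 1.6.0 on GENCODE release 42 (GRCh38), paired and reverse-stranded, with reads on several genes or places left out by default. The submitters' processing notes also name STAR 2.7.9a and FastQC 0.11.8. Symbols were matched for 62672 of 62696 gene IDs. In R 4.3.3, counts were filtered with filterByExpr, normalized by TMM and fitted over all 17307 remaining genes with edgeR 4.0.16 (robust quasi-likelihood, no replicate term, Benjamini-Hochberg adjustment, threshold 0.001 from the study). CPM used TMM-scaled library sizes. Standard errors are the absolute log2 fold change over the square root of F. Upstream windows came from RefSeq (GRCh38.p14), and proteins were aligned with Biopython 1.88 (local, BLOSUM62). On simulated data for OC2-OE against control (17207 genes), 159 of 171 changed genes (93.0%) were recovered, with 0 false calls. The simulation changed 200 genes before the filter, all by large steps, and gave every gene the same dispersion. In the real data 9776 genes were called, many with small changes, so the simulation does not measure the error of those calls.

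The members and lists were chosen with earlier results of these data known. Named beyond the members were ONECUT2, other carbonic anhydrase genes, genes on their exons, and on each list the called genes that changed most, up to 3 a list, with a mean log2 CPM of at least 1. Outside this rule, PTPRG, PTPRZ1, RHCG, ACACA, the neighbors ENO1 and RERE and the cell type markers were named, the genes other than the markers after their values were seen. Some genes that this rule names are not reported here. The alternatives were DESeq2 size factors, library size only, DESeq2 1.42.0, limma voom (limma 3.58.1), other filters, ONECUT2 left out, a replicate block, each library left out and a threshold of 0.05. Between libraries of a group, counts differed by 1.33 to 2.12 times sampling variance, so none was a copy. The sample titles do not say whether the replicates came from separate transductions. If they did not, standard errors and p-values leave out the variation between transduced lines. Other differences between the control and OC2-OE lines could then not be told apart from OC2. Intervals and floors cover counting error only.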

Additional observations from a re-analysis of the deposited data

How the results depend on the processing

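The 7 tested carbonic anhydrases were chosen with this contrast known, so their counts under the alternatives are given as values and support nothing. They were 3 higher and 3 lower throughout, except that a minimum of 10 counts in every library left 2 higher, since CA6, at 0 in the control libraries, could not enter it. With each library left out, the log2 fold change of CA9 ran from -3.70 to -3.47, CA11 from 0.94 to 1.11, CA8 from -0.58 to -0.48, CA10 from -0.90 to -0.72 and CA5B from -0.23 to -0.06. Whether the replicate numbers pair the libraries was not tested. Over 7052 genes, correlations of deviations were 0.0124, 0.0376 and 0.0237 for same-numbered libraries. For the other pairs of a control and an OC2-OE library they ran from -0.0255 to 0.000915. Each library thus correlated best with its own number, though weakly. With the replicate block, 9642 genes were called instead of 9776.

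The list counts that moved by a factor of at least 1.5 did so as follows, and the cause was not tested unless fewer genes entered. Receptor phosphatases had 1 higher with library size only, limma voom or no filter on low counts, 1 higher and 1 lower at an adjusted p under 0.05, and 0 to 1 higher with libraries left out. Water and gas channels had 1 higher with DESeq2, limma voom or at least 10 counts in every library (4 genes tested), 3 with library size only, 4 at an adjusted p under 0.05, and 1 to 3 with libraries left out (3 without control replicate 1). Bicarbonate-using enzymes had 0 lower with library size only or DESeq2, and 0 to 1 with libraries left out. Proton and lactate transporters had 1 to 2 lower with libraries left out and 3 at an adjusted p under 0.05. HIF target genes had 3 higher with library size only or at an adjusted p under 0.05. Acid-sensing genes had 0 lower with at least 10 counts in every library (2 tested). Every other list count stayed within 1 gene. Depth limits CA2, CA12 and CA14.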
